A study of Pseudotsuga menziesii with 72 samples.

Results

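The comparison sets needles of Douglas-fir (Pseudotsuga menziesii, a conifer) taken at 14:00 against needles of the same trees taken at 10:00. Its members are the libraries that the titles place at hours 12 and 36 of the series (14:00) and at hours 8 and 32 (10:00), counted from a first collection at 2:00. These are 24 of the 72 libraries, 12 at each clock time. The 6 trees (1A and 1B of family 1, 2A and 2B of family 2, 3A and 3B of family 3, by their names) were sampled on 2 consecutive days, and every tree gave a pair of libraries (10:00 and 14:00) on each day, 12 pairs in all. The trees were 3 years old, belonged to 3 half-sib families of 2 trees, came from one Oregon seed source (Siskiyou, low elevation) and grew in Corvallis. The labels give no treatment and no introduced allele, and by the titles the 2 groups differ in the hour alone. A separate collection-time label disagrees with many of these titles and was not used. Light, temperature and the state of the internal clock all change with the hour in trees outdoors, and they cannot be told apart here. Each sample pooled several needles from different sides of the tree, and the 2 days are single September dates, so p-values describe 6 trees on 2 dates.

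In plants, an internal clock of about a day's length is built from transcription factors that repress one another in turn, some active at dawn, others at midday and others in the evening. Light resets this clock and also acts directly on many genes of photosynthesis, pigment synthesis and sugar metabolism. Late morning is the part of the day in which dawn-phased transcripts are usually declining and midday-phased transcripts accumulating. The deposited table names transcripts by identifiers (psme_t followed by a number) and pairs none of them with a gene, a sequence or a place in the genome. The transcripts described below therefore cannot be assigned to clock, light or metabolic genes, and the needle identity of the samples could not be checked against marker genes. Different identifiers may also be parts or copies of one gene.

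The 24 libraries held 10.3 to 41.2 M counts (median 24.6 M). Median totals were 17.4 M at 10:00 and 20 M at 14:00 of day 1, and 25 M and 26.3 M at the same times of day 2. Levels are CPM (a transcript's counts scaled to a common library total), scaled between libraries by trimmed-mean (TMM) factors of 0.802 to 1.18. The lowest factor, that of tree 3B at 14:00 of day 1, stood apart from the others of its collection (0.971 to 1.03). Factors of this tree were also low earlier that day, at 0.851 (2:00), 0.748 (6:00) and 0.809 (10:00). Without its pair of day 1 the step from 10:00 to 14:00 was called for 15622 transcripts. By deviation from the mean of its collection, each of the 24 libraries lay nearest another library of its own tree (24 of 24), and these deviations correlated at 0.538 to 0.837 across transcripts between the 2 libraries of a pair. In all, 50101 transcripts had enough counts to be tested, and a transcript was called when its Benjamini-Hochberg adjusted p in edgeR's quasi-likelihood test was under 0.05.

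Between 10:00 and 14:00 a large part of the needle transcriptome changed, and about as many transcripts rose as fell. With each tree and day as its own pair, 16669 transcripts were called, 33.3% of those tested. Of these, 8211 rose (16.4%) and 8458 fell (16.9%). The count was 6625 with no replicate block for the pairs, and 9084 of 19401 tested (46.8%) when at least 1 CPM was required in every library. The 12 pairs come from 6 trees. With the days summed per tree, which makes the tree the unit, the count was 12772, and with separate terms for tree and day 13403. The lean toward falls was small and turned under several settings, among them the adjusted p of 0.01 (5680 rose, 5132 fell) and scaling by library totals alone (8307 rose, 7529 fell). The median rise was 1.64-fold (interquartile range 1.36 to 2.16) and the median fall 1.51-fold (1.23 to 2.13). The median change over all tested transcripts was -0.03 on the log2 scale, and -0.008 with library totals alone. The centre of the transcriptome thus lay close to 0 with or without the TMM factors.

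Large changes were a minority of the calls. A change of at least 2-fold was called for 4985 transcripts (9.95% of those tested), with 2530 rises and 2455 falls. These counts were 440 and 238 with at least 1 CPM required in every library, 1415 and 1086 with the filter on the 24 libraries alone, and 4657 and 3685 with no filter. At least 4-fold changes numbered 981 (1.96%), with 469 rises and 512 falls, and 136 reached 10-fold (60 rises and 76 falls). The direction of the change was the same in every one of the 12 pairs for 5347 transcripts (10.7% of those tested, 3004 up and 2343 down), of which 5340 were called. For 395 transcripts (0.788%) all 12 libraries of 14:00 lay above all 12 of 10:00, and for 185 (0.369%) all lay below. A transcript can move the same way in every pair and still overlap between the clock times, where the trees differ in level.

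The share called and the size of the called changes were read by abundance. In 4 equal classes of increasing mean level (medians of 0.263, 0.779, 3.56 and 24.6 CPM) the share called was 20.2%, 29.3%, 39.4% and 44.2%. The median size of the called changes in these classes was 1.36, 0.898, 0.560 and 0.328 on the log2 scale. The share with a called change of at least 2-fold was 15.9%, 12.0%, 7.58% and 4.28%. Counting error is larger for scarce transcripts, so the classes do not compare the true sizes of change. In the most abundant class 2568 transcripts rose and 2964 fell, while at least 2-fold changes there leaned to rises (362 against 174). Among the 100 most abundant transcripts, each with at least 1050 CPM on average, 5 rose and 24 fell, and 1 rise and 1 fall reached 2-fold. In the most abundant class 20.5% rose and 23.7% fell, and over all tested 16.4% and 16.9%. The falls among the 100 thus lay near the share of that class, and the rises among them lay below it. Together these 100 held a median of 30.9% of the counts at 10:00 and 29.1% at 14:00.

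The steepest rises took transcripts from a trace level to a high one within 4 h. The level of psme_t020574 ran from 0.107 to 1.08 CPM at 10:00 (median 0.537, n = 12) and from 9.38 to 69.0 CPM at 14:00 (median 36.2). Every library of 14:00 lay above the highest of 10:00, and the lowest values at 14:00 were those of trees 2A (9.38 CPM) and 3A (11.7 CPM) on day 1. The fitted log2 change was 6.00 ± 0.21 (SE), a 64.1-fold rise (edgeR, adjusted p = 3.3e-12), with a rise in 12 of 12 pairs. The choice of named step transcripts, rises here and falls in the next paragraph, required 12 of 12 pairs in one direction. It also took the largest changes among transcripts with a mean of at least 10 CPM over the 24 libraries. Such a choice favours a trace level at one clock time and a high one at the other. The named step transcripts passed the limit through their high clock time alone. For psme_t038959 the level ran from 0.704 to 4.01 CPM at 10:00 (median 1.26) and from 40.5 to 188 CPM at 14:00 (median 76.6). Tree 1A held the highest 14:00 value of this transcript on both days, 158 CPM on day 1 and 188 CPM on day 2. The 2 clock times did not overlap, and its log2 change was 5.75 ± 0.21 (edgeR, adjusted p = 5.46e-12, 12 of 12 pairs).

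The steepest falls took transcripts from a high mid-morning level to a few counts a library. The level of psme_t033489 ran from 12.5 to 49.9 CPM at 10:00 (median 20.6) and from 0.0392 to 0.698 CPM at 14:00 (median 0.374). Its 14:00 libraries held only 1 to 15 counts each, so the size of the fall is set by small counts. The fitted log2 change was -5.97 ± 0.15, a 62.5-fold fall (edgeR, adjusted p = 1.55e-13), with a fall in 12 of 12 pairs. It was the 1 transcript of all tested with at least 5 CPM in all 12 libraries of one clock time and at most 1 CPM in all 12 of the other, and no transcript made the reverse move (0). These counts hang on the 1 CPM limit. The rise psme_t020574, with at least 9.38 CPM at 14:00, missed it with a highest 10:00 value of 1.08 CPM. The fall psme_t012991 missed it with a highest 14:00 value of 1.40 CPM. The level of psme_t012991 ran from 25.8 to 72.5 CPM at 10:00 (median 31.9) and from 0.343 to 1.40 CPM at 14:00 (median 0.681, 11 to 22 counts a library). The values of psme_t012991 at 10:00 were highest in tree 3A on day 1 (64.5 CPM) and in tree 2A on day 2 (72.5 CPM), so no single tree was the highest on both days. The 2 clock times did not overlap, and its log2 change was -5.78 ± 0.13 (edgeR, adjusted p = 7.8e-14, 12 of 12 pairs).

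**Figure D1:**
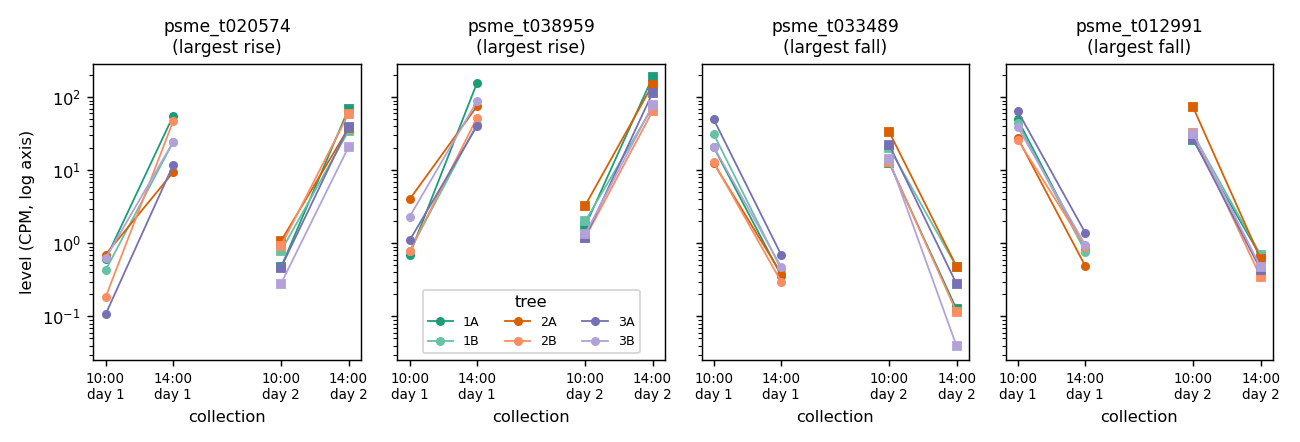
Levels (CPM, log axis) of the 2 largest rises and the 2 largest falls among transcripts with a mean of at least 10 CPM, at 10:00 and 14:00 of both days, with 1 line per tree (colours) joining the 2 libraries of a pair. All 12 lines rise in the left-hand pair of panels and all 12 fall in the right-hand pair, as the choice of transcripts required. The ranges of the clock times do not overlap in any panel.

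The levels of these 4 transcripts at other clock times were read over both days (n = 12). Both rises stood at a median of at most 0.984 CPM at 2:00 and 6:00 (0.426 and 0.367 CPM for psme_t020574, 0.947 and 0.984 CPM for psme_t038959). By 22:00 they had come down to medians of 1.34 and 3.26 CPM. Both falls were already high at 6:00, at medians of 19.6 CPM for psme_t033489 and 34.5 CPM for psme_t012991, and had stood at 2.46 and 4.73 CPM at 2:00. At 22:00 their medians were 0.106 and 0.151 CPM.

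Most transcripts called on one day moved in the same direction on the other. Tested on the 12 libraries of day 1 alone, 9594 transcripts were called (19.1% of those tested), 5196 rises (10.4%) and 4398 falls (8.78%), and on those of day 2 alone 9302 (18.6%), 5009 rises (10%) and 4293 falls (8.57%). The 2 days share no library but share the 6 trees. Of the rises of day 1, 3176 were also called as rises on day 2, which is 61.1% of the day-1 list and 63.4% of the day-2 list, against 10% of all tested transcripts called as rises on day 2. Of the falls of day 1, 2237 were called as falls on day 2 (50.9% of the day-1 list and 52.1% of the day-2 list), against 8.57% of all tested. Calls in the opposite direction were few, with 16 rises of day 1 called as falls and 4 falls called as rises. Called or not, 94.3% of the day-1 rises and 96.0% of the day-1 falls had the same direction on day 2.

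Rises called on day 1 had a median log2 change of 0.86 there, and of 0.66 in the libraries of day 2 (interquartile range 0.35 to 1.16). Falls called on day 1 had medians of -0.69 on day 1 and -0.54 on day 2. In the reverse direction, rises called on day 2 went from 0.92 to 0.70 and falls from -1.07 to -0.62 when read on day 1. Values are larger on the day that chose them by construction, since a call favours large estimates. Of 3688 transcripts called on day 1 with at least a 2-fold change, 2475 (67.1%) were called in the same direction on day 2, and 2157 (58.5%) with at least 2-fold again. Of all tested, 10% were called as rises and 8.57% as falls on day 2. Across all 50101 transcripts the log2 changes of the 2 days correlated at 0.702 (Pearson's r, a description across transcripts, which are not independent). A further 4854 transcripts were called over both days together and on neither day alone.

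**Figure D2:**
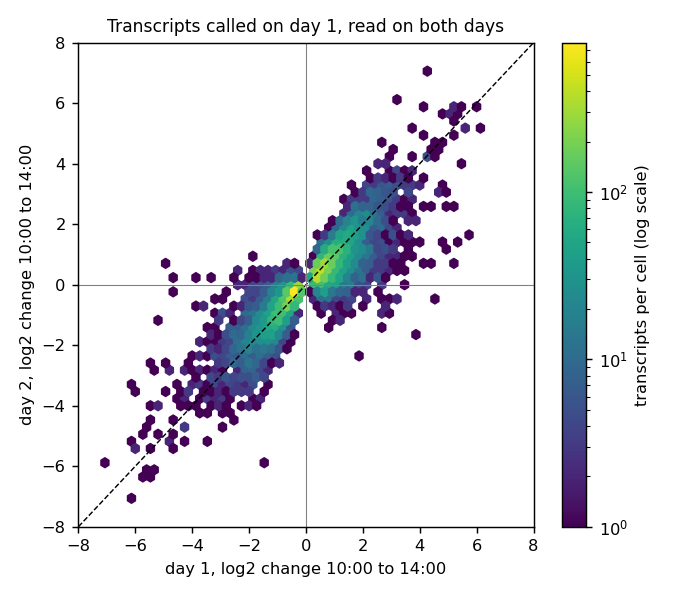
Log2 change from 10:00 to 14:00 on day 2 (vertical axis) against day 1 (horizontal axis) for the 9594 transcripts called on day 1, as counts per cell on a log colour scale, with the dashed line marking equal change. Most cells lie at the lower left and upper right along the line, and the near-empty strip around 0 on the horizontal axis comes from the choice by day-1 calls.

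Few transcripts differed in their step between the days. The interaction of clock time and day passed for 44 transcripts (0.0878% of those tested), with 4193 (8.37%) at an unadjusted p under 0.05. The step was higher on day 2 for 14 of them and lower for 30. Of the 44, 21 had opposite directions on the 2 days, 15 moved the same way and further on day 2, and 8 the same way and less far. The count was 46 without tree 3A, but 14, 2, 1, 2 and 13 without trees 1A, 1B, 2A, 2B and 3B. By DESeq2 it was 375. A step that did not pass is not shown to be equal on both days.

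The day difference was firmest for psme_t001582, which rose on both days but less on the second. On day 1 its level ran from 3.27 to 7.82 CPM at 10:00 (median 4.59, n = 6) and from 52.9 to 77.5 CPM at 14:00 (median 55.6). On day 2 it ran from 7.49 to 12.3 CPM at 10:00 (median 8.53) and from 38.3 to 54.8 CPM at 14:00 (median 44.9). The second day thus began higher and ended lower, and the log2 steps of the trees, 3.29 to 4.25 on day 1 and 2.06 to 2.58 on day 2, did not overlap, as the choice of named transcripts required. The difference was -1.33 ± 0.15 on the log2 scale (edgeR, adjusted p = 0.00828), and it passed with each tree left out in turn (adjusted p of 0.0146 to 0.0497).

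In the other named transcripts with a day difference, the 10:00 level was the one that moved most between days. The level of psme_t010643 at 10:00 ran from 32.1 to 71.8 CPM on day 1 and from 343 to 720 CPM on day 2, with no overlap. At 14:00 it ran from 90.1 to 205 CPM on day 1 and from 230 to 587 CPM on day 2. Its step was therefore a rise in all 6 trees on day 1 (log2 change 1.57 ± 0.14) and mixed on day 2 (-0.08 ± 0.20), a difference of -1.65 ± 0.28 (edgeR, adjusted p = 0.0474). For psme_t050133 the median at 10:00 was 108 CPM on day 1 and 52.1 CPM on day 2, with medians of 101 and 107 CPM at 14:00. Its step was -0.15 ± 0.12 on day 1 and 0.90 ± 0.12 on day 2 (edgeR, difference 1.05 ± 0.19, adjusted p = 0.0484). For psme_t016758 the medians at 10:00 were 38.1 and 11.9 CPM and at 14:00 22.0 and 16.4 CPM, with steps of -0.85 ± 0.09 on day 1 and 0.20 ± 0.15 on day 2 (edgeR, difference 1.05 ± 0.18, adjusted p = 0.0474). These 3 differences did not pass without 4 to 6 of the trees, left out 1 at a time (adjusted p up to 0.213).

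The change was present in each of the 6 trees. The transcripts called on day 1 were read in each tree's own pair of day 2. The median log2 change of the 5196 rises was 0.61 for tree 1A and 0.69 for 1B, 0.65 for 2A and 0.57 for 2B, and 0.69 for 3A and 0.57 for 3B. Of these rises, 80.7% (1A) to 90.1% (2A) went up in a single pair of libraries. The 4398 falls had medians of -0.48 for both 1A and 1B, -0.50 for 2A and -0.38 for 2B, and -0.59 for 3A and -0.41 for 3B, and 82.7% (1A) to 92.5% (3A) went down. Over all 50101 transcripts the tree medians lay between -0.03 and 0.

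A difference in step between trees was rarely called. The interaction of clock time and tree passed for 4 transcripts (0.00798%), with 4236 (8.45%) at an unadjusted p under 0.05. The test has 2 pairs per tree, and its count was 608 by DESeq2 and 0 to 36 in edgeR when single trees were left out (23 without 1B, 36 without 2A, and 0 without 2B, 3A or 3B). The 2 named transcripts with a mean of at least 10 CPM were higher at 14:00 than at 10:00 on both days in trees 3A and 3B, the trees of family 3, and in no other tree. The level of psme_t036378 went from 3.88 to 33.2 CPM in 3A and from 2.37 to 14.8 CPM in 3B on day 1, and from 2.55 to 21.1 CPM in 3A and from 1.33 to 6.85 CPM in 3B on day 2. In the same steps it went from 55.4 to 29.2 CPM and from 81.6 to 97.9 CPM in tree 1B, and from 26.8 to 24.7 CPM and from 49.4 to 47.9 CPM in tree 2B. Trees 1A and 2A had at most 0.428 CPM of it at either time. Its test gave F = 30.3 (edgeR, adjusted p = 0.0242).

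The other was psme_t011897. It went from 6.16 to 38.0 CPM in 3A and from 2.24 to 16 CPM in 3B on day 1, and from 3.31 to 21.9 CPM and from 1.25 to 8.38 CPM on day 2. In 1B it went from 47.5 to 26.8 CPM and then from 60.4 to 87.8 CPM, and in 2A it stayed between 1.02 and 2.77 CPM. Its test gave F = 27.2 (edgeR, adjusted p = 0.0309). Both transcripts failed to pass without tree 2B, 3A or 3B (highest adjusted p 0.141). Family was not tested.

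To follow the changed transcripts through the evening without using the libraries that chose them, the lists of day 1 (5196 rises and 4398 falls) were read on day 2 at 10:00, 14:00, 18:00 and 22:00. From 14:00 to 18:00, 859 of the rises fell (16.5%), 360 rose further (6.93%) and 3977 did not pass (76.5%), which does not show that they were level. Over all tested transcripts 6.38% fell and 4.94% rose in that step. Of the falls, 335 rose again (7.62%), 441 fell further (10.0%) and 3622 did not pass (82.4%). That order turned with library totals alone (331 rose, 289 fell) and under the filter of 1 CPM in every library (374 rose, 319 fell). With single trees left out, the rises that rose numbered 167 to 218, the rises that fell 500 (without 2A) to 708, the falls that rose 145 to 238 and the falls that fell 281 (without 2A or 2B) to 326. The median log2 change was -0.08 for the rises and -0.01 for the falls, against 0.00 over all tested.

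Between 18:00 and 22:00 of day 2 many of the rises came down and many of the falls went up, while fewer were called in the same hours of day 1 (given last). Of the rises, 1891 (36.4%) fell, against 7.32% of all tested, and 215 (4.14%) rose. Of the falls, 1454 (33.1%) rose, against 9.54% of all tested, and 60 (1.36%) fell. The median log2 changes were -0.31 and 0.28. Over the whole stretch from 14:00 to 22:00, 2408 of the rises (46.3%) fell and 305 (5.87%) rose, beside 12.8% and 14.3% of all tested. Of the falls 1734 (39.4%) rose and 333 (7.57%) fell.

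At 22:00 many transcripts still differed from their 10:00 level. Between 10:00 and 22:00 of day 2, 28.5% of all tested transcripts differed. In that comparison 1993 of the rises (38.4%) were still higher and 435 (8.37%) were lower, beside 14.7% and 13.9% of all tested. Of the falls, 1594 (36.2%) were still lower and 437 (9.94%) higher. The median log2 difference from 10:00 was 0.29 for the rises and -0.23 for the falls. Steps with a common collection share its libraries, so their counts are given side by side only. Among the rises, 1339 (25.8%) did not pass from 14:00 to 18:00 and then fell, 340 (6.54%) fell in both steps, 458 (8.81%) fell in the first alone, and 212 (4.08%) rose before they fell. A further 2492 (48.0%) passed in neither step. Over all tested transcripts these courses took 5.44%, 0.94%, 4.2%, 0.94% and 75.5%, in the same order.

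The largest changes of day 1 were followed in the same way. Of 551 rises of at least 4-fold, 407 (73.9%) were called again on day 2, against 10% of all tested called as rises there. The median log2 step of the 551 on day 2 was 2.08. By 22:00, 352 of the 551 (63.9%) had fallen from their 14:00 level and 6 (1.09%) had risen, beside 12.8% and 14.3% of all tested, with a median log2 change of -1.35. Of 416 falls of at least 4-fold, 309 (74.3%) were called again, against 8.57% of all tested called as falls on day 2. The median log2 step of the 416 on day 2 was -2.28. Of these 416, 182 (43.8%) had risen by 22:00 and 38 (9.13%) had fallen further, beside the same 14.3% and 12.8% of all tested, with a median of 1.12. Relative to 10:00, the median log2 difference at 22:00 was 0.63 for the large rises and -0.88 for the large falls.

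Seen over the whole of day 2, rises and falls of day 1 lay on opposite sides of the trees' means from 2:00 to 18:00. The medians given next are deviations of log2 CPM from each tree's own mean over the 6 collections of the day, averaged over the 6 trees. The rises stood at -0.19 ± 0.04 (SD, n = 6 trees) at 2:00, -0.35 ± 0.03 at 6:00 and -0.23 ± 0.06 at 10:00. They stood at 0.41 ± 0.04 at 14:00, 0.34 ± 0.03 at 18:00 and 0.04 ± 0.05 at 22:00. The falls stood at 0.16 ± 0.03, 0.31 ± 0.05 and 0.18 ± 0.05 in the first 3 collections and at -0.29 ± 0.04, -0.32 ± 0.04 and -0.03 ± 0.04 in the last 3. The trees' ranges of the rises and of the falls did not overlap at any collection from 2:00 to 18:00. At 22:00 they did, with -0.02 to 0.11 for the rises and -0.07 to 0.02 for the falls.

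**Figure D3:**
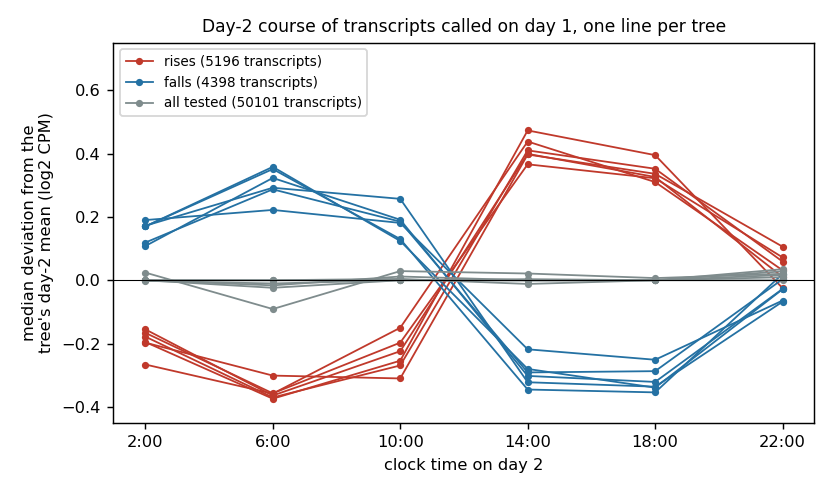
Median deviation of log2 CPM from the tree's own day-2 mean, at the 6 collections of day 2, for the 5196 rises and 4398 falls called on day 1 and for all 50101 transcripts tested, with 1 line per tree. The lines of rises and falls cross between 10:00 and 14:00, stay apart at 18:00 and meet near 0 at 22:00.

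The 14:00 collection was the top of the day for 2518 of the rises (48.5%) by their mean level on day 2, and 18:00 for 1735 (33.4%), against 16% and 19.8% of all tested. For 139 of them (2.68%) the top was at 10:00. The bottom of the day lay at 6:00 for 2420 rises (46.6%) and at 10:00 for 1714 (33.0%), against 26% and 16.4% of all tested. The falls had their top at 6:00 in 1927 cases (43.8%) and at 10:00 in 1440 (32.7%), against 17.6% and 19.3% of all tested. Their bottom was at 14:00 in 1822 (41.4%) and at 18:00 in 1674 (38.1%), against 17.2% and 17.8%. The rule took the highest of 6 means with no test, and neighbouring collections may differ by less than their spread.

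**Figure D4:**
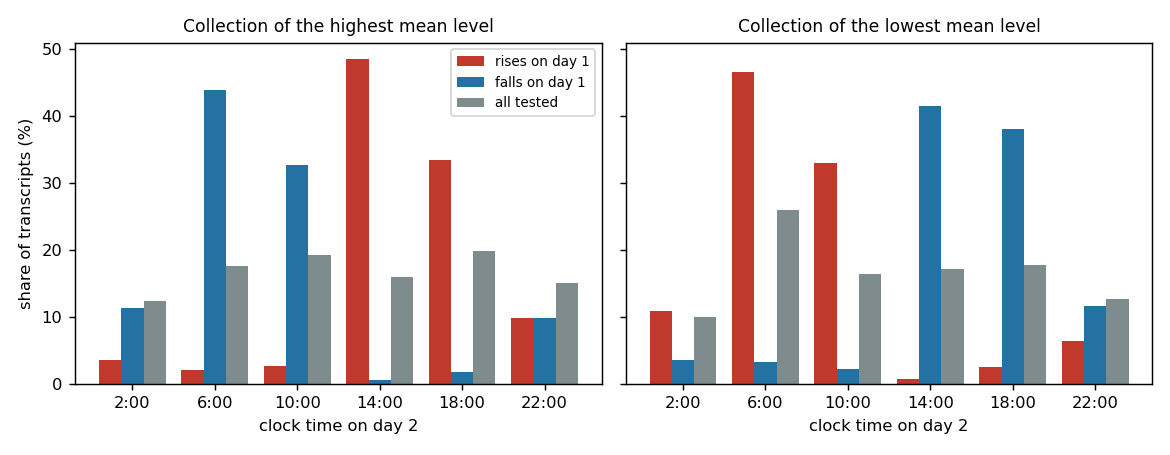
Share of transcripts (%) whose mean level over the 6 trees was highest (left) or lowest (right) at each collection of day 2, for rises and falls called on day 1 and for all tested. Rises have their top mostly at 14:00 (48.5%) or 18:00 (33.4%), and falls mostly at 6:00 (43.8%) or 10:00 (32.7%).

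The changed transcripts also took a different share of the RNA counted. On day 2 the rises of day 1 held 8.88% to 14.0% of a library's counts at 10:00 (median 10.2%, n = 6), 12.5% to 17.7% at 14:00 (median 14.9%), 12.5% to 16.4% at 18:00 (median 13.8%) and 11.4% to 12.7% at 22:00 (median 11.9%). The top value at 10:00 was that of tree 2B, and without it the highest was 10.6%. The falls of day 1 held 11.4% to 13.1% at 10:00 (median 12.7%), 8.87% to 10.0% at 14:00 (median 9.42%), 8.45% to 9.82% at 18:00 (median 9.35%) and 10.1% to 11.7% at 22:00 (median 10.7%). Shares of a whole must balance, and these needles were measured in bulk, so fewer cells of a type and less RNA per cell cannot be told apart.

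Single transcripts took different courses through the evening. The largest return among the rises was that of psme_t055151, whose day-2 levels ran from 1.19 to 3.12 CPM at 10:00 (median 1.64), from 45.5 to 152 CPM at 14:00 (median 76.5), from 10.6 to 35.2 CPM at 18:00 (median 19.8) and from 1.83 to 3.61 CPM at 22:00 (median 2.39). All 6 trees were highest at 14:00, and the ranges at 10:00 and 22:00 overlapped. From 14:00 to 22:00 its log2 change was -5.01 ± 0.20 (edgeR, adjusted p = 4.04e-13), and 22:00 against 10:00 gave 0.54 ± 0.22 (adjusted p = 0.067). By contrast psme_t042728 went on rising. It ran from 1.43 to 4.88 CPM at 10:00, from 2.19 to 7.32 CPM at 14:00, from 6.90 to 11.8 CPM at 18:00 and from 19.0 to 39.9 CPM at 22:00, a log2 change of 2.37 ± 0.20 from 14:00 (edgeR, adjusted p = 2.46e-08). The highest of its 6 collections of day 2 was that at 22:00 in all 6 trees. Of its means from 10:00 to 22:00, only that at 22:00 (28.1 CPM) exceeded the limit of 10 CPM used in the choice.

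Among the falls, psme_t002520 dipped at 14:00 and rose again by 22:00. Its day-2 levels ran from 10.8 to 116 CPM at 10:00 (median 22.5), from 1.18 to 4.42 CPM at 14:00 (median 3.37), from 2.05 to 6.85 CPM at 18:00 (median 5.99) and from 11.5 to 31.6 CPM at 22:00 (median 23.1). Tree 3A alone exceeded 32.3 CPM at 10:00. The log2 change from 14:00 to 22:00 was 2.87 ± 0.31 (edgeR, adjusted p = 8.34e-07). For 22:00 against 10:00 it was -0.42 ± 0.28 (edgeR, adjusted p = 0.286), which does not show equal levels. At 6:00 of day 2 the median of psme_t002520 had been higher, at 77.3 CPM. In psme_t021239 the fall went on through the evening, from 43.0 to 203 CPM at 10:00 (median 71.5) to 25.1 to 59.6 CPM at 14:00 (median 44.5), 10.7 to 23.8 CPM at 18:00 (median 12.8) and 2.75 to 5.54 CPM at 22:00 (median 3.69). The level of psme_t021239 dropped at every step in every tree, and the log2 change from 14:00 was -3.46 ± 0.17 (edgeR, adjusted p = 7.63e-12). For this transcript the late-morning step, -0.91 ± 0.15 on day 2, was smaller than its change from 14:00 to 22:00.

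**Figure D5:**
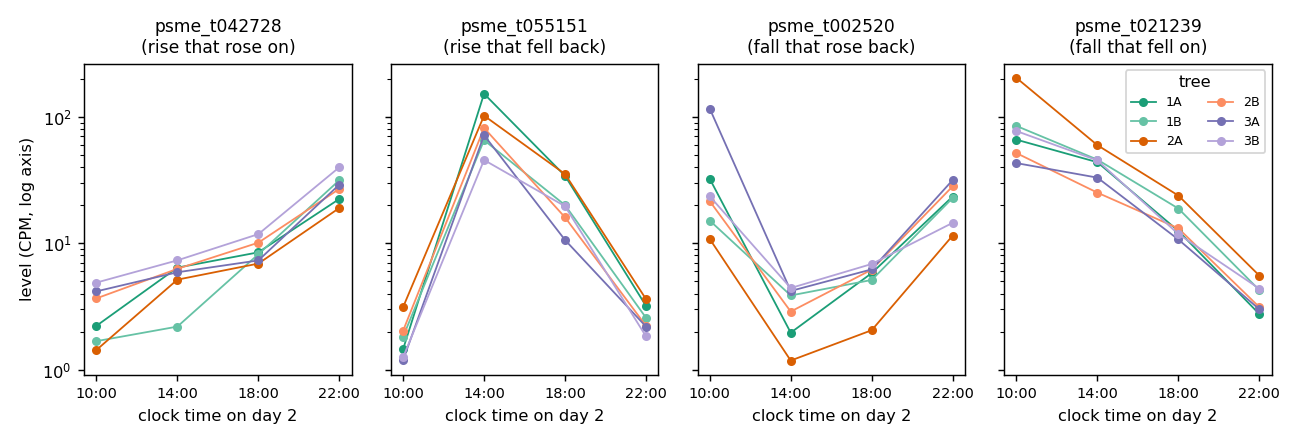
Levels (CPM, log axis) at 10:00, 14:00, 18:00 and 22:00 of day 2, with 1 line per tree, of the transcripts with the largest further rise and largest return among the rises of day 1, and the largest return and largest further fall among the falls of day 1. All 6 trees follow the same course within each panel.

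The roles of the days were then exchanged. Among the 5009 rises and 4293 falls called on day 2 and read on day 1, 1709 of the rises (34.1%) fell and 271 (5.41%) rose from 14:00 to 22:00, beside 10.8% and 10.1% of all tested. Of the falls, 1307 (30.4%) rose and 253 (5.89%) fell over the same stretch. From 18:00 to 22:00 of day 1, 592 of the rises (11.8%) fell and 713 of the falls (16.6%) rose, beside 1.64% and 3.01% of all tested. These are fewer than the 1891 and 1454 of day 2, as were the calls over all tested transcripts, and the medians on day 1 were -0.27 and 0.36 on the log2 scale. The scaling of tree 3B moved within both evenings. Its TMM factor on day 1 was 0.802 at 14:00, 0.998 at 18:00 and 1.04 at 22:00. On day 2 it was 0.875, 0.929 and 0.995 at these times. Whether such shifts of a tree bear on the counts was not tested, nor was the difference between the evenings.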

How the data were processed

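The authors deposited a table of raw whole-number counts for 180879 transcripts in 72 libraries, read with Bowtie2 2.2.3 and CASAVA 1.8 per the submitters' processing notes. The reference was not given in the sources used here. Libraries were strand-specific and made from polyA RNA, per the labels' protocols. A second table of normalized values was not used. Hours come from the titles, counted from a first collection at 2:00, and a separate collection-time label that disagrees with many titles was not used.

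Transcripts were kept by edgeR's filterByExpr over all 72 libraries with the 12 collections as groups (minimum count 10 in a library and 15 in all), which left 50101 transcripts and 99.2% to 99.7% of the counts of the 24 libraries. The tests were edgeR's quasi-likelihood F tests (version 4.0.16, R 4.3.3), with TMM factors and a block for each tree and day, with Benjamini-Hochberg adjustment over all 50101 transcripts. The evening was tested within day 2 with the tree as block. Standard errors are the log2 change divided by the square root of F. Changes of single pairs used log2 CPM with a prior count of 2. Pairs come from the tree names in the labels. The test was tried on simulated counts.

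Named transcripts had a mean of at least 10 CPM over the 24 libraries or, for the evening, over 10:00 to 22:00 of day 2. For the step they are the 2 largest rises and falls among called transcripts with 12 of 12 pairs in one direction, and for the step by day the 2 largest differences each way among called transcripts whose per-tree changes do not overlap between days. For the step by tree they are the 2 of smallest p, and for the evening the largest called rise and fall from 14:00 to 22:00 within each day-1 list. Members and lists were chosen with earlier results of these data known. Alternatives were DESeq2 1.42.0, other scalings (RLE, library totals), other filters, an adjusted p of 0.01, each tree left out, no replicate block, separate terms for tree and day, all 72 libraries, the days summed per tree, 1 pair left out, and the evening of day 1 for transcripts called on day 2. R packages limma (3.58.1) and data.table (1.17.8) were loaded, and figures made in matplotlib 3.10.9 (Python 3.11.15).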

Additional observations from a re-analysis of the deposited data

Results flagged for a closer look

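A value whose gap to its nearest neighbour was large against the range of its group was looked for in 48 groups of 6 values, 1 per tree. The groups were library totals and TMM factors by collection, log2 steps of the named transcripts by day, and count shares of the day-1 lists. In all, 3 were found, where chance gives 2.4. That figure assumes unselected groups, and the named transcripts were selected by their changes. The TMM factor of tree 3B at 14:00 of day 1 was 0.802, against 0.971 to 1.03 in the other trees. At 10:00 of that day the same tree had 0.809. Tree 2B at 14:00 of day 2 had a library total of 41.2 M counts, against 23.8 to 29.3 M. In tree 2B at 10:00 of day 2 the rises of day 1 held 13.97% of the counts, against 8.88% to 10.61% in the other trees.

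A difference in step passed its test between the days for 44 transcripts and between the trees for 4 transcripts.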

How the results depend on the processing

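No named transcript of the step, the step by day or the evening changed sign under the alternatives run on it (0). The step by tree has no sign. No transcript called in the step was called the opposite way (0). The alternatives used the same libraries in whole or in part, and the step and day choices required consistent changes. These counts are therefore no independent support. The order of rises and falls in the step, and of further falls and returns among the day-1 falls from 14:00 to 18:00, turned under some settings given above. Over both days, on day 1, on day 2 and on both days alike, 16669, 9594, 9302 and 5413 transcripts were called. The counts were 9084, 6379, 5237 and 3418 with at least 1 CPM in every library, and 10812, 5382, 4470 and 2753 at an adjusted p under 0.01. With no replicate block they were 6625, 2085, 2021 and 1101. Leaving out single trees gave 13679 to 14990, 7273 to 8639, 6230 to 8638 and 3919 to 4530.

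Of the day-1 rises, 2408 fell from 14:00 to 22:00 of day 2, and 1734 of the falls rose. These counts were 1495 and 1104 under the 1 CPM filter, 1441 and 791 at 0.01, 524 and 218 with no replicate block, and 1839 to 2162 and 1170 to 1402 with single trees left out.

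The step by day (44) gave 1244 transcripts with no filter, 375 by DESeq2, 13 with library totals alone, 2 with tree and day as separate terms, 23 without the pair of tree 3B on day 1, 1 at 0.01, 0 with no replicate block and 1 to 46 with single trees left out. The step by tree (4) gave 3360 with no filter, 608 by DESeq2, 0 to 36 with single trees left out, and 0 under the 1 CPM filter, the filter on the 24 libraries alone, separate terms, without the 3B pair and at 0.01. The cause of these moves was not tested. Each tree gave 1 pair of libraries a day, which limits the tests of days and trees.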
